A study of Mus musculus with 6 samples.

Results

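The genes described here are the intracellular relay of TGF-beta signalling and its brakes: the signal transducers Smad2, Smad3 and Smad4, the inhibitory SMAD gene Smad7, the ubiquitin ligase genes Smurf1 and Smurf2, the corepressor genes Ski, Skil and Tgif1, and the membrane adaptor gene Pmepa1. They were taken by name, 10 genes of the 55487 in the count table, with identifiers matched to symbols through GENCODE M21. All 10 passed the filter on low counts that left 15774 genes for testing. The samples are neutrophils, the short-lived granulocytes of innate immunity, sorted as Ly6G-positive cells from perfused and digested mouse lungs and profiled by RNA-seq. The 3 mutant libraries come from Mrp8-Cre;TGFbR2-fl/fl mice, in which Cre driven by the S100A8 (Mrp8) promoter, active in neutrophils and other myeloid cells, is meant to recombine the loxP-flanked Tgfbr2 gene. The 3 wt libraries come from Cre-negative TGFbR2-fl/fl littermates, so that both groups carry the loxP-flanked alleles and wt here does not mean free of loxP sites. The transgene also carries EGFP and is absent from wt. The sources used here give neither age nor sex. The series' design gives 3 mice per group, as many as there are libraries. No label ties a library to a single mouse, so the spread behind each p-value is that of libraries and may be partly technical.

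TGF-beta binds a pair of receptor kinases at the cell surface, and Tgfbr2 encodes the one that binds ligand first and activates its partner. The partner phosphorylates the Smad2 and Smad3 proteins, which join Smad4, enter the nucleus and switch target genes on or off. Among the usual targets in many cell types are brakes on the same route: Smad7, Skil and Pmepa1 are known as induced feedback inhibitors, and the SMURF ligases, recruited by Smad7, tag receptors and SMADs for degradation. The comparison asks how the transcripts of this relay stand in lung neutrophils when the receptor gene is targeted.

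Library totals ran from 30403494 to 35906780 counts, and 3 counts in a library, the smallest number taken here as detection, came to 0.0829 to 0.102 CPM (counts scaled to library size, with TMM factors), a floor that covers counting error only. Pearson correlations of log2 CPM were 0.937 to 0.944 between libraries of 1 group and 0.934 to 0.941 between groups. Tgfbr2 itself was at 176, 205 and 181 CPM in mutant replicates 1 to 3 and 186, 185 and 201 CPM in wt replicates 1 to 3. The groups overlapped, and a count pooled over all exons of Tgfbr2 does not check the deletion of a part of the gene. Of 8 neutrophil markers the granulocyte growth factor receptor gene Csf3r was the most abundant, at 7689 to 9233 CPM. Ly6g, the sorting marker, was at 14.4 to 35.2 CPM. S100a8, the gene after whose promoter the Cre transgene is named, was at 966, 1507 and 973 CPM in mutants, against 1687, 1752 and 1688 CPM in wt. Its log2 fold change of -0.57 had an adjusted p of 0.405 by edgeR and of 0.034 by DESeq2.

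Per base of exon, the corepressor genes Tgif1 and Skil were the most abundant of these transcripts and Pmepa1 the least. Levels between genes are compared as CPM per kb of merged exon. Tgif1 led in wt at 45.1 ± 4.59 CPM per kb, above 94.2% of tested genes (SD, n = 3 here and in every value of this paragraph). Skil followed at 21.3 ± 3.32 CPM per kb. Smad3 at 12.7 ± 2.41, Smad4 at 11.1 ± 0.967 and Ski at 10.4 ± 1.19 CPM per kb formed a group whose neighbours overlapped. Smad2 was at 7.06 ± 1.03 and Smurf2 at 5.28 ± 1.20 CPM per kb, and these also overlapped. Smad7 stood at 2.79 ± 0.284 and Smurf1 at 2.17 ± 0.448 CPM per kb, again with overlapping ranges. Pmepa1, at 0.496 ± 0.0013 CPM per kb, was above 24.0% of tested genes. In wt the steps from Tgif1 to Skil, Skil to Smad3, Ski to Smad2, Smurf2 to Smad7 and Smurf1 to Pmepa1 had no overlap between the 3 libraries on either side.

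**Figure D1:**
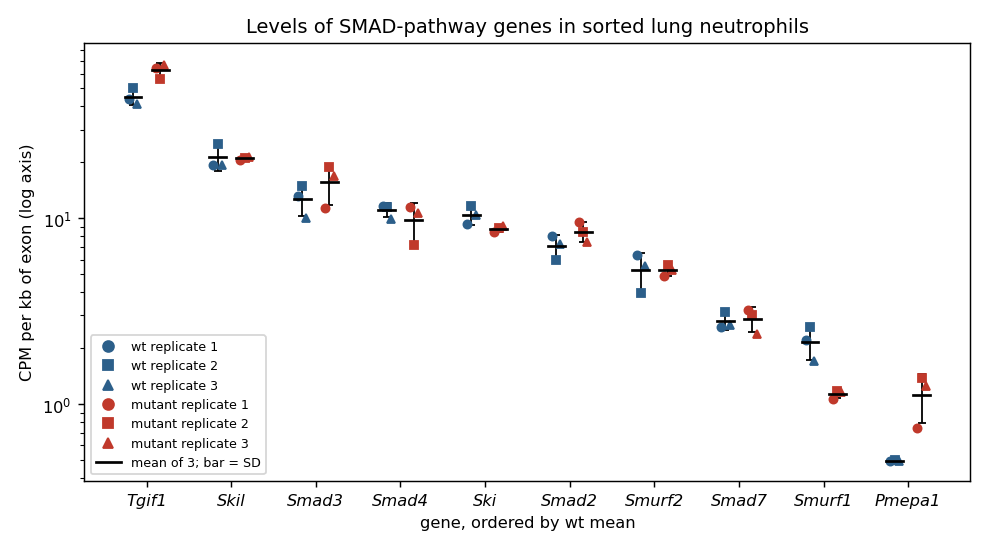
Levels of the 10 genes as CPM per kb of exon on a log axis, with 1 point for each library, the mean of 3 libraries and their SD. Tgif1 is the highest and Pmepa1 the lowest of the wt means, and the order of the group means is the same in wt and mutant libraries.

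The mutant means came in the same order, but the neighbours that overlapped were not all the same. Ski and Smad2, separate in wt, overlapped in mutants, and Smad2 and Smurf2, which overlapped in wt, were separate in mutants. Smad7 and Smurf1 were separate in mutants, at 2.87 ± 0.442 and 1.14 ± 0.058 CPM per kb, while Smurf1 and Pmepa1 overlapped, the second at 1.12 ± 0.332 CPM per kb (SD, n = 3). The length used matters for Tgif1, which has alternative first exons. Its merged exons span 5625 bases. Its transcript with the longest coding sequence, Tgif1-209, has 1714 bases and would put the wt level at 148 CPM per kb. With the lengths of transcripts chosen in this way, Smurf2 moved from place 7 to place 6 in wt, at 10.4 CPM per kb, and Smad2 took place 7. The other 8 genes kept their places. These values divide counts over all merged exons by the shorter transcript length, so they can overstate the level of the chosen transcript. For Smurf2 the merged exons span 6162 bases and the chosen transcript 3125.

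No member passed the 5% threshold over all 15774 genes by edgeR's quasi-likelihood test with Benjamini-Hochberg adjustment. That test called 0.00634% of all genes higher in mutants, the single gene Ap1s1, and 0% lower. With an unadjusted threshold of 0.05 edgeR had 2 of the 10 members higher, Tgif1 and Pmepa1, and 1 lower, Smurf1, where the shares of all tested genes were 3.51% and 3.22%. DESeq2's Wald test called 1 member higher, Tgif1, and 1 lower, Smurf1, against 0.514% and 0.469% of all genes, and limma-voom called 0. Over the 6904 genes that averaged 10 CPM or more, edgeR called 0.203% higher and 0.0579% lower, and none was a member. Log2 fold changes, mutant over wt, were above 0 for 5 members and below 0 for 5, and their median was 0.02 beside 0.0054 for all tested genes. The 95% interval lay within a 2-fold change in either direction for 8 members, the exceptions being Smurf1 and Pmepa1.

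**Figure D2:**
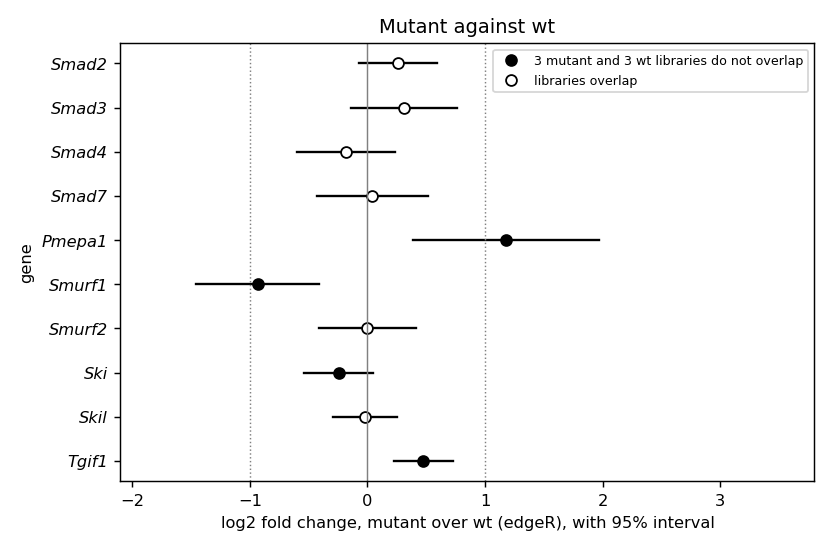
Log2 fold change of each gene, mutant over wt, with its 95% interval from edgeR; filled points mark genes whose 3 mutant and 3 wt libraries do not overlap, and dotted lines mark a 2-fold change. The intervals of Tgif1, Pmepa1 and Smurf1 exclude 0 before adjustment, and those of the other 7 genes include it.

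The promoters of Tgif1 and Smurf1, the members with the smallest p by edgeR, and of the Smurf1 paralog Smurf2 are shown because SMAD complexes act by binding DNA next to their targets. RefSeq promoters (GRCm38.p6, 250 bases before each annotated start) were on hand for 5 of the 10 genes: Smad3, Ski, Tgif1, Smurf1 and Smurf2. Capitals mark CAGAC, the core of the box bound by Smad3 and Smad4, or its reverse complement GTCTG. The first sequence ends at the start of transcript Tgif1-209, and all are written 5′ to 3′ on the minus strand, on which the 3 genes lie, without bases inside annotated exons.
Tgif1, chr17:70851735-70851984: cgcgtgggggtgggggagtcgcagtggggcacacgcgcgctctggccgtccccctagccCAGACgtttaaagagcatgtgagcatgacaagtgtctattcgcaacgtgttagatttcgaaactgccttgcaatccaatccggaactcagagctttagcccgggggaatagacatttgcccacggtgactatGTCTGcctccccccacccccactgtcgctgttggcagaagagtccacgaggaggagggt
Smurf1, chr5:144965848-144966080: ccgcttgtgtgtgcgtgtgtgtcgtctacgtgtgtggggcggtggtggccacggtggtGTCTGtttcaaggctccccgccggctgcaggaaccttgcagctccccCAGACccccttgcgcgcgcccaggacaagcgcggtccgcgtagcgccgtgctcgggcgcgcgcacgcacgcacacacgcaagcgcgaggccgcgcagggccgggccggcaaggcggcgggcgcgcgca
Smurf2, chr11:106920716-106920965: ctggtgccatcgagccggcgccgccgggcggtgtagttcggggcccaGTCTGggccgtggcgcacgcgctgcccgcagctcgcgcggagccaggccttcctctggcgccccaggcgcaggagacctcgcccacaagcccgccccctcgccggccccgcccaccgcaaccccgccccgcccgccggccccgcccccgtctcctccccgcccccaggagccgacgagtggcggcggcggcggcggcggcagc

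The Tgif1 window holds 2 such boxes, 191 and 59 bases before the RefSeq start, the Smurf1 window 2, 192 and 145 bases before the start, and the Smurf2 window 1, 203 bases before the start. The same search of 32851 RefSeq promoters found the box in 42.2% of them, and the window of Smurf2, whose levels overlapped between groups, also holds it. The other 4 annotated starts of Tgif1 had 1, 0, 1 and 0 boxes in their windows, and the windows of Smad3 and Ski held 0. The longer palindrome GTCTAGAC was in 0.167% of all promoters and in none of the members' windows. The GC-rich element GGCGC, or GCGCC on the other strand, was in 32.0% of all promoters and occurred 7 times before the Ski start, 6 times before that of Smurf2, 4 times before that of Smurf1 and 1 time in the 5 windows of Tgif1. TGTCA, the core recognised by TGIF homeodomains, or its reverse complement TGACA, was in 40.0% of all promoters and, among members, in 3 of the 5 Tgif1 windows. These are matches of letters and not evidence of binding.

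The signal transducers Smad2, Smad3 and Smad4 overlapped between groups, and none passed the test. Smad2 (ENSMUSG00000024563.16, plus strand of chromosome 18, 76241580 to 76310963 in GRCm38) was at 83.6, 74.0 and 65.2 CPM in mutant replicates 1 to 3 and at 70.1, 52.3 and 63.7 CPM in wt replicates 1 to 3. The groups overlapped at the low end of the mutants, and edgeR put the log2 fold change at 0.26 ± 0.15 (SE, adjusted p = 0.832), or 0.15 without wt replicate 2 and 0.17 without mutant replicate 1. Smad3 (ENSMUSG00000032402.12, minus strand of chromosome 9, 63646767 to 63757994), whose protein binds DNA directly, was at 63.2, 105 and 93.4 CPM in mutants, against 72.9, 82.2 and 55.8 CPM in wt. Mutant replicates 2 and 3 were above all wt libraries and mutant replicate 1 was among them, and the log2 fold change was 0.31 (95% interval -0.14 to 0.76, adjusted p = 0.875, edgeR). That value was 0.50 without mutant replicate 1, 0.15 without mutant replicate 2 and 0.17 without wt replicate 3.

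Smad4 (ENSMUSG00000024515.13, minus strand of chromosome 18, 73639009 to 73703780) encodes the shared partner of the receptor-activated SMADs. It was at 42.8, 26.6 and 39.5 CPM in mutants, against 43.4, 42.9 and 37.0 CPM in wt. Only mutant replicate 2 lay below the wt range. The log2 fold change was -0.18 (95% interval -0.60 to 0.24, adjusted p = 0.947, edgeR), and without mutant replicate 2 it was -0.0034. Put against its partners within a library, the ratio of Smad4 to the sum of Smad2 and Smad3, in CPM per kb, was 0.551, 0.262 and 0.438 in mutants and 0.554, 0.556 and 0.575 in wt. All 3 mutant ratios were below all 3 wt ratios, with mutant replicate 1 just under them. The mean log2 ratio differed by -0.50, mutant minus wt, and by -0.19 without mutant replicate 2, with p = 0.1 by a two-sided exact permutation test (n = 3 each), the smallest p this design allows, and 0.15 after adjustment over the 6 ratios computed. The ratio of Smad2 to Smad3 spanned 0.440 to 0.835 in mutants and 0.401 to 0.720 in wt, and its log2 difference of -0.035 had an exact p of 1 (n = 3 each).

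Of the induced feedback inhibitors, Smad7 and Skil did not separate the groups and Pmepa1 did. The values of Skil are given with the corepressors below. Smad7 (ENSMUSG00000025880.11, plus strand of chromosome 18, 75367529 to 75395935) encodes the inhibitory SMAD that occupies the activated receptor. It was at 14.5, 13.7 and 10.7 CPM in mutants, against 11.7, 14.1 and 12.1 CPM in wt. The ranges lay across each other and the log2 fold change was 0.040 with a 95% interval of -0.43 to 0.51 (adjusted p = 0.997, edgeR), an interval that spans mutant levels of 0.742 to 1.43 times wt. Dropping any of 3 libraries turned its sign: mutant replicate 1 (-0.046), mutant replicate 2 (-0.0032) or wt replicate 1 (-0.0092). Relative to the sum of Smad2 and Smad3, Smad7 stood at 0.154, 0.110 and 0.0978 in mutants and 0.123, 0.150 and 0.154 in wt, with an exact p of 0.3 (n = 3 each).

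Pmepa1 (ENSMUSG00000038400.15, minus strand of chromosome 2, 173224458 to 173276533) encodes a membrane protein that holds receptor-activated SMADs away from the receptor and recruits SMURF-type ligases. It had 133, 200 and 199 counts in mutant replicates 1 to 3 and 74, 74 and 78 counts in wt replicates 1 to 3. In CPM these were 3.68, 6.78 and 6.12 in mutants and 2.43, 2.44 and 2.44 in wt. Every mutant library was above every wt library, as in 6.82% of all tested genes. The mutant mean was 2.27 times the wt mean, with a log2 fold change of 1.18 and a 95% interval of 0.39 to 1.97. It did not pass over all genes by edgeR (adjusted p = 0.488) or by DESeq2 (0.186). The wt SD of 0.0066 CPM is smaller than the counting error of 74 to 78 counts. Leaving out each library in turn gave log2 fold changes from 1.00 to 1.40. The antisense gene Pmepa1os had 0 counts.

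Epithelial and fibroblast markers were also higher on average in the mutant libraries, while other lists moved less or in the other direction. The summed level of 10 epithelial markers was 527, 616 and 968 CPM in mutant replicates 1 to 3 and 304, 537 and 260 CPM in wt replicates 1 to 3. Of the 10, 8 had a fold change above 0, 5 passed an unadjusted 0.05 upward by edgeR and 0 downward, DESeq2 called 2 higher, and the median log2 fold change was 0.84. The summed level of 6 fibroblast markers was 377, 371 and 600 CPM in mutants, against 321, 271 and 313 CPM in wt, with 5 of the 6 above 0 in fold change, 4 past an unadjusted 0.05 upward, 1 called higher by DESeq2, and a median of 0.56. All 16 of these markers passed the filter on low counts. The epithelial sums overlapped between groups and the fibroblast sums did not. Both sums were highest in mutant replicate 3. Among the mutants Tgif1 was also highest in replicate 3, Pmepa1 was highest in replicate 2, and Smurf1 and Ski were lowest in replicate 1. Among the wt libraries the epithelial sum was highest and the fibroblast sum lowest in replicate 2. Tgif1, Smurf1 and Ski were highest in that wt library, and Pmepa1 was at 2.43 to 2.44 CPM in all wt libraries. The part of these markers in the differences of Pmepa1, Tgif1, Smurf1 and Ski was not tested. In bulk samples a larger share of such cells and more RNA per cell cannot be told apart. The other marker lists, for 8 neutrophil, 7 alveolar macrophage, 7 monocyte and macrophage, 7 endothelial, 7 B and plasma cell, 8 T and NK cell, 6 dendritic cell and 4 eosinophil, mast cell and basophil genes, had medians of -0.22, 0.24, -0.05, -0.12, 0.28, -0.22, -0.31 and -0.28. The B and plasma cell median covers 6 tested genes, without Mzb1, the dendritic cell median 5, without Xcr1, and the last median 1. All 7 alveolar macrophage markers had a fold change above 0, and all 7 endothelial markers had one below 0. Of the 8 neutrophil markers, 7 were below 0 and 1 above. The 7 alveolar macrophage markers summed to 121 to 156 CPM in mutants and 105 to 128 CPM in wt. The 7 monocyte and macrophage markers summed to 794 to 844 and 869 to 896 CPM. Epx, an eosinophil marker, had no count. Over all genes edgeR called 0 markers, and at an unadjusted 0.05 it had 2 neutrophil markers lower, S100a8 and Cxcr2, both also called lower by DESeq2, and 1 alveolar macrophage marker higher.

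Of the SMURF pair, Smurf1 was lower in every mutant library than in any wt library, and Smurf2 overlapped. Smurf1 (ENSMUSG00000038780.14, minus strand of chromosome 5, 144876495 to 144965847) and Smurf2 (ENSMUSG00000018363.16, minus strand of chromosome 11, 106820066 to 106920715) encode closely related HECT-type ligases that bind Smad7 and SMAD proteins and mark receptors and SMADs for degradation. Smurf1 had 245, 220 and 239 counts in mutants and 426, 498 and 345 counts in wt. Mutant levels were 6.77, 7.45 and 7.35 CPM, and wt levels 13.99, 16.4 and 10.8 CPM. The 3 mutant libraries lay close together and below every wt library, as in 6.21% of all tested genes. The wt mean was 1.91 times the mutant mean, and the log2 fold change was -0.93 ± 0.24 (SE; 95% interval -1.46 to -0.41). DESeq2 called it lower at an adjusted p of 0.042, whereas edgeR gave 0.345 and limma-voom 0.348. Over 13 other settings the adjusted p ran from 0.042 to 0.725. Boxes of the kind that SMAD proteins bind are marked in its promoter above, and 42.2% of all promoters searched hold one. Whether they bear on the Smurf1 level was not tested. With each library left out of DESeq2 in turn, the call held without mutant replicate 2 (0.049) and without wt replicate 3 (0.019). It was lost without mutant replicate 3 (0.169) or with either wt replicate 1 (0.239) or 2 (0.238) left out, and DESeq2 gave no adjusted p without mutant replicate 1.

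Smurf2 was at 30.2, 34.6 and 32.7 CPM in mutants, against 39.1, 24.5 and 33.9 CPM in wt. The mutants lay inside the wt range, and the log2 fold change was -0.0013 with a 95% interval of -0.41 to 0.41 (adjusted p = 0.999, edgeR), a sign that turned with library totals alone (0.0082) and without mutant replicate 1 (0.051), wt replicate 1 (0.15) or wt replicate 3 (0.030). Smurf1 was at 0.218, 0.210 and 0.219 of the Smurf2 level per kb in mutants and at 0.348, 0.652 and 0.309 in wt. The mutant ratios were nearly equal and all below the wt ratios, of which replicate 2, with the highest Smurf1 and the lowest Smurf2 level, was the highest. The mean log2 ratio differed by -0.94, mutant minus wt (exact permutation p = 0.1, adjusted 0.15, n = 3 each), and by -0.61 without wt replicate 2. Within 500 kb of Smurf1 there were 12 other tested genes, with log2 fold changes of -0.31 to 0.34 and 0 at an unadjusted p under 0.05. Ap1s1 lies on the same chromosome and outside that window, and whether the position bears on Smurf1 was not tested.

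**Figure D3:**
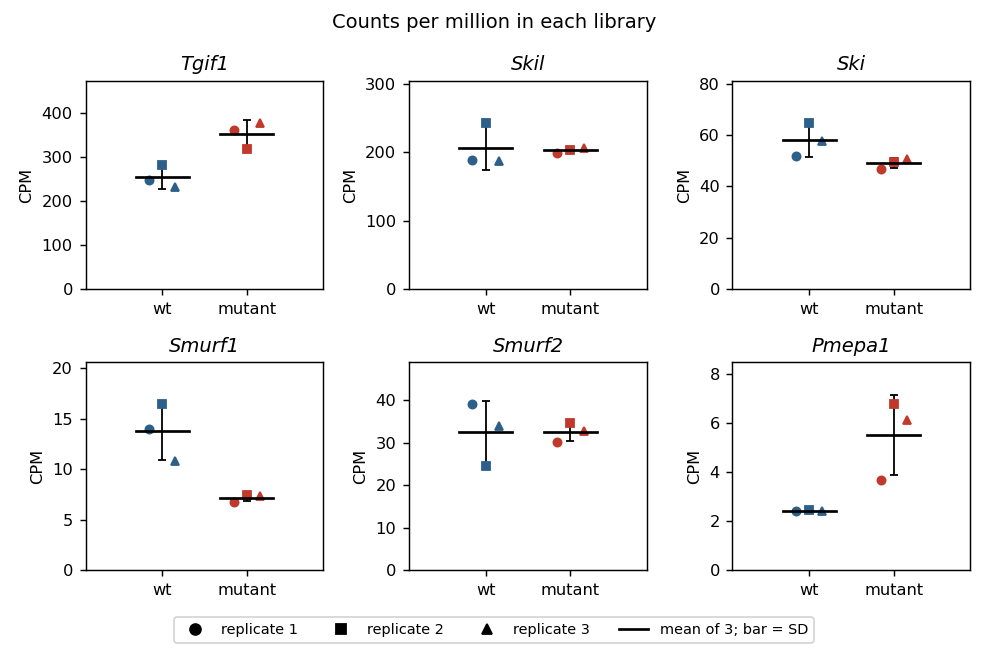
CPM in each library for the 3 corepressor genes, the SMURF pair and Pmepa1 on linear axes from 0, with 1 point per library, the mean of 3 and the SD. Tgif1 and Pmepa1 are higher and Ski and Smurf1 lower in every mutant library than in any wt library, while Skil and Smurf2 overlap.

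Of the corepressors, which hold SMAD complexes silent on DNA, Tgif1 was higher and Ski lower in every mutant library than in any wt library, and Skil overlapped. Tgif1 (ENSMUSG00000047407.17, minus strand of chromosome 17, 70844205 to 70853546) encodes a homeodomain protein that brings histone deacetylases to Smad2 and also represses retinoid-responsive genes. It was at 361, 317 and 378 CPM in mutants, against 247, 282 and 232 CPM in wt. Every mutant library was above every wt library, as in 6.82% of all tested genes, with a gap between mutant replicate 2 and wt replicate 2. The mutant mean was 1.39 times the wt mean, and the log2 fold change was 0.47 ± 0.11 (SE; 95% interval 0.22 to 0.73). Tgif1 ranked 92 of 15774 genes by p. Its adjusted p was 0.304 by edgeR, 0.209 by limma-voom and 0.015 by DESeq2, which called it higher, and over 13 other settings it ran from 0.015 to 0.725. The DESeq2 call held without mutant replicate 2 (9.7e-04) and without wt replicate 2 (0.0019). It was lost without mutant replicate 1 (0.0504), mutant replicate 3 (0.167) or either of wt replicates 1 (0.134) and 3 (0.119). A processed pseudogene named Tgif1-ps had 0 counts in the libraries.

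Ski (ENSMUSG00000029050.15, minus strand of chromosome 4, 155154075 to 155222592) and Skil (ENSMUSG00000027660.16, plus strand of chromosome 3, 31095058 to 31122577) encode the related proteins c-Ski and SnoN, which bind Smad2, Smad3 and Smad4 and recruit corepressors. Both proteins are degraded early in a TGF-beta response, and SnoN is then made again. Ski was at 46.9, 49.5 and 50.5 CPM in mutants, against 51.6, 64.8 and 57.7 CPM in wt. Every mutant library was below every wt library, as in 6.21% of all tested genes, but the gap between mutant replicate 3 and wt replicate 1 was small. By edgeR the log2 fold change was -0.24 (95% interval -0.54 to 0.050, adjusted p = 0.808), and it was -0.16 without wt replicate 2. Skil was at 199.5, 203.5 and 207 CPM in mutants, against 189, 244 and 187 CPM in wt. The mutants sat between the wt values, and the log2 fold change of -0.022 (95% interval -0.29 to 0.25, adjusted p = 0.997, edgeR) was 0.11 without wt replicate 2.

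Within each library the corepressors were also set against each other. The level of Ski per kb was 0.410, 0.424 and 0.425 of that of Skil in mutants and 0.477, 0.463 and 0.537 in wt. The level of Tgif1 per kb was 3.12, 2.69 and 3.15 times that of Skil in mutants and 2.26, 2.00 and 2.13 times in wt. Neither ratio overlapped between the groups. Ski over Skil was lower and Tgif1 over Skil higher in every mutant library, and a ratio within a library does not depend on how libraries were scaled. The mean log2 differences, mutant minus wt, were -0.23 for Ski over Skil and 0.49 for Tgif1 over Skil, each with an exact permutation p of 0.1 (n = 3 each) and 0.15 after adjustment over the 6 ratios. In all, 4 of the 6 ratios did not overlap between groups and reached this smallest possible p. Among single genes, 13% of all tested did not overlap in either direction, and no such share was computed for ratios. Both corepressor ratios share Skil, and all 4 share genes with the fold changes above.

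**Figure D4:**
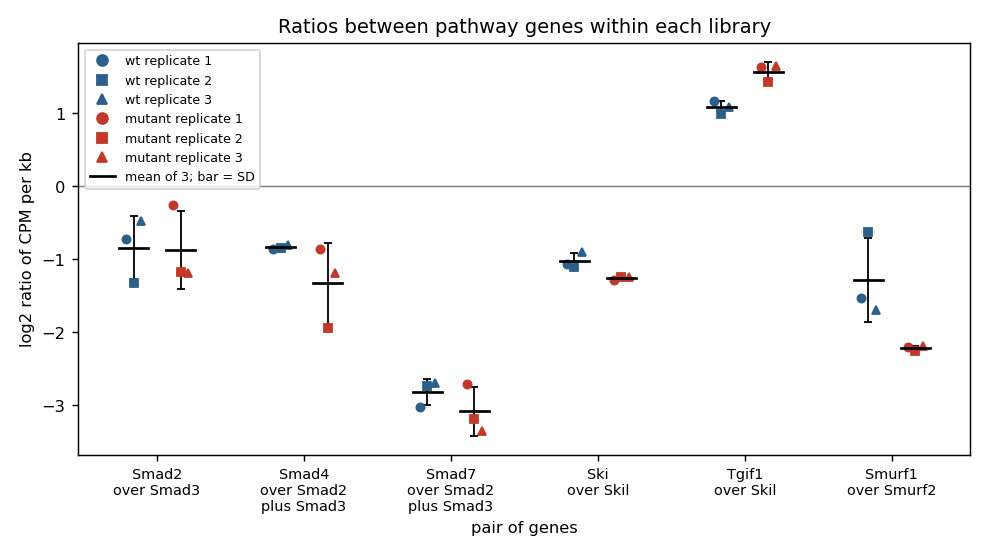
Log2 ratios of CPM per kb between pathway genes within each library, with 1 point per library, the mean of 3 and the SD. Tgif1 over Skil is higher in all mutant libraries, and Smurf1 over Smurf2, Ski over Skil and Smad4 over the sum of Smad2 and Smad3 are lower.

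In the scatter of all tested genes the members lay among the moderately to well expressed genes, apart from Pmepa1. In wt Tgif1 was above 95.8% and Skil above 94.8% of tested genes in CPM, while Smurf1 was above 62.2% and Pmepa1 above 33.0%. Groups did not overlap for 2 members on the higher side and 2 on the lower side of the 10, where 13% of all tested genes did not overlap in either direction. These members are Tgif1, Pmepa1, Smurf1 and Ski.

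**Figure D5:**
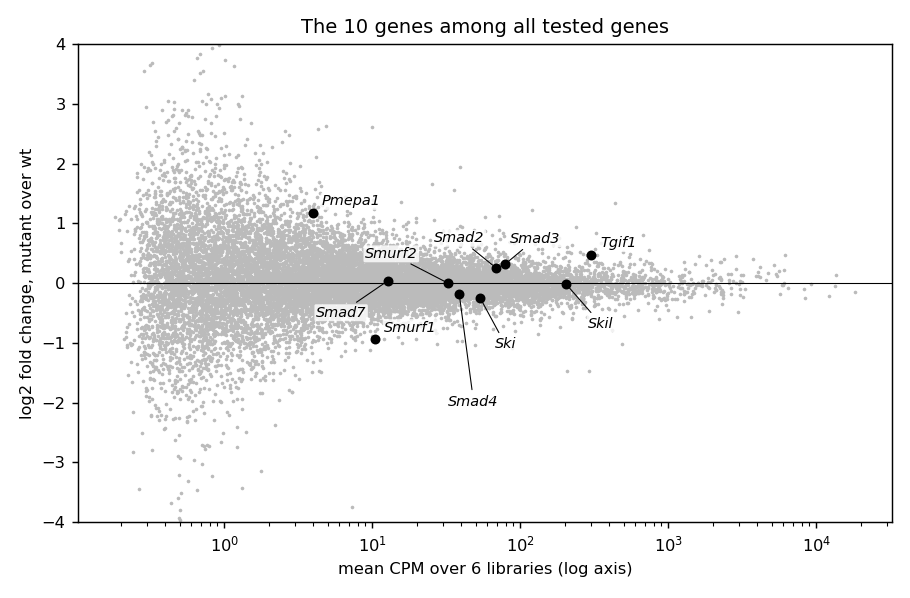
Log2 fold change, mutant over wt, against mean CPM (log axis) for all 15774 tested genes in grey and the 10 genes in black; 26 genes beyond a log2 fold change of 4 in either direction are not shown. Tgif1 and Smurf1 lie towards the edge of the grey cloud at their level, and Pmepa1 lies at a level where the cloud is wide.

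Around the 10 genes, 8 lists of other genes of the route held 78 genes, of which 76 were tested, and edgeR called 0 of them over all genes. At an unadjusted 0.05 there were 2 on the higher and 2 on the lower side, 5.26% of those tested beside 6.73% of all genes, and DESeq2 called 1 higher and 0 lower. The other SMAD genes were low. Smad5, a transducer for BMP signals, was at 11.9 ± 1.95 CPM in mutants, against 12.5 ± 0.759 in wt, and Smad1 at 5.12 ± 2.82 and 5.26 ± 2.94 CPM (SD, n = 3 each). The list of 4 such genes had 1 positive and 3 negative fold changes, with a median of -0.022. Among 12 tested receptor genes of the TGF-beta family, without Acvr1c and Bmpr1b, an unadjusted 0.05 was passed by 0 upward and 1 downward, and the median was 0.089. That one was Bmpr2, the BMP type II receptor, at 57.1 ± 6.82 and 71.9 ± 4.59 CPM, and Bambi, a decoy receptor that Smad signalling can induce, was at 42.4, 37.9 and 37.1 CPM in mutants, against 28.9, 36.8 and 35.5 CPM in wt.

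Ligases other than the SMURFs gave no gene past the unadjusted threshold. Of 9 SMAD ubiquitin ligase genes 0 had an unadjusted p under 0.05, and the median was -0.026. Nedd4l, which marks activated Smad2 and Smad3, was at 40.5 ± 4.33 CPM in mutants, against 47.6 ± 6.25 in wt, and Trim33, which competes with Smad4, at 24.5 ± 3.72 and 21.1 ± 3.37 CPM (SD, n = 3 each). Of 7 deubiquitinase and phosphatase genes 0 had an unadjusted p under 0.05, with a median of 0.023. Usp4, which stabilises the type I receptor, was at 173 ± 14.3 and 155 ± 7.58 CPM, and the SMAD phosphatase gene Ppm1a at 22.3 ± 1.18 and 24.7 ± 1.92 CPM.

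Proteins that work beside the corepressors and coactivators also gave 0 genes with an unadjusted p under 0.05, among 11 corepressor partners (median 0.084) and 8 coactivators and DNA-binding partners (median -0.015). Sin3a, the scaffold of a histone deacetylase complex, was at 49.6 ± 3.90 CPM in mutants, against 58.7 ± 8.28 in wt (SD, n = 3 each). The histone acetyltransferase genes Ep300 and Kat2a were at 89.4 ± 1.01 against 100.2 ± 4.22 CPM and 7.63 ± 2.53 against 6.36 ± 1.23 CPM. Of 8 adaptor genes at receptors and SMADs 0 passed the same unadjusted threshold, with a median of 0.085. Strap, which helps Smad7 hold the receptor, was at 76.8 ± 3.53 and 65.0 ± 6.78 CPM, and the endocytic adaptor gene Dab2 at 17.5 ± 5.62 and 12.2 ± 3.89 CPM.

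Of 17 genes listed as TGF-beta targets, members excluded, 10 had fold changes above 0 and 7 below, and the median was 0.047. TGF-beta does not raise all of them, such as Id1, in every cell type, so these signs are no readout of its activity. At an unadjusted p under 0.05 edgeR had 2 higher, Thbs1 and Klf10, and 1 lower, Id1, and DESeq2 called Thbs1 higher. Thbs1, the matrix protein thrombospondin 1, was at 4308, 4241 and 4275 CPM in mutants, against 3127, 3225 and 3344 CPM in wt (adjusted p = 0.242, edgeR). Klf10, a zinc finger repressor known as an early TGF-beta response gene, was at 125, 117 and 134 CPM in mutants, against 99.0, 102 and 106 CPM in wt (adjusted p = 0.605, edgeR). Both were higher in every mutant library than in any wt library. Of the 17 genes, 3 separated in this direction and 2 in the other, where the shares of all tested genes were 6.82% and 6.21%. Id1, an inhibitor of helix-loop-helix factors, was at 36.4, 45.1 and 43.2 CPM in mutants, against 60.0, 63.1 and 45.6 CPM in wt, where the lowest wt library was just above the highest mutant.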

How the data were processed

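RNA-seq counts of sorted lung neutrophils from 3 mutant and 3 wt libraries were analysed. Per the labels' protocols, cDNA came from 2 ng of total RNA by SMART-Seq v2, which does not mark strand, with Nextera XT libraries read as paired ends of 151 cycles. The authors deposited raw whole-number counts per gene, over all exons and not normalized. The tools STAR and featureCounts and the build GRCm38 are named per the submitters' processing notes, with versions and settings not given in the sources used here. Exon lengths are the deposited merged lengths in bases. Counts without molecular identifiers may include PCR copies.

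Symbols came from GENCODE M21 (55094 identifiers matched exactly, 300 without version, 93 not). Genes were filtered by edgeR's filterByExpr (minimum count 10), scaled by TMM and tested, unpaired, in R 4.3.3 by the quasi-likelihood test of edgeR 4.0.16. Calls were made at 5% after Benjamini-Hochberg adjustment across the 15774 genes. DESeq2 1.42.0 and limma-voom (limma 3.58.1) were alternatives, beside other scalings and filters and each library left out. Standard errors are the log2 fold change over the square root of F. Ratios used two-sided exact permutation over 20 assignments. No batch is labelled, and no exon of another gene with counts overlaps a member. Named genes are the 10 members and, of each pathway list, called genes or the 2 with the smallest p at a mean of at least 5 CPM; Id1, S100a8, Cxcr2, Csf3r and Ly6g were named after their values were seen, and 1 gene that the rule names is not reported here. The members and lists were chosen with earlier results of these data known.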

Additional observations from a re-analysis of the deposited data

How the results depend on the processing

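By edgeR 1 gene was higher and 0 lower over all genes. These counts became 41 and 29 with no filter on low counts, 14 and 4 under a minimum mean of 10 CPM, and 81 and 74 by DESeq2, and ran from 0 to 1 on each side when each library was left out. The single higher call was lost on dropping mutant replicate 1, wt replicate 1 or 3, and 1 gene was lower without mutant replicate 2. DESeq2's size factors, library totals alone, limma-voom and edgeR's robust option left both counts as they were. Of the members, DESeq2 called Tgif1 (0.47) and Smurf1 (-0.94). Smurf2, at -0.0013, turned positive with library totals alone (0.0082), under a minimum mean of 10 CPM (0.018) and by limma-voom (0.017). The other 9 members kept their sign under every alternative that used all 6 libraries, and Pmepa1 fell below the 10 CPM filter. With each library left out by edgeR, log2 fold changes ran from 0.15 to 0.36 for Smad2, 0.15 to 0.50 for Smad3, -0.31 to -0.0034 for Smad4, -0.32 to -0.16 for Ski, -0.046 to 0.16 for Smad7, -0.088 to 0.11 for Skil, -0.17 to 0.15 for Smurf2, 0.41 to 0.56 for Tgif1, -1.08 to -0.78 for Smurf1 and 1.00 to 1.40 for Pmepa1. The log2 ratio of Smad2 to Smad3 ran from -0.34 to 0.15, turning positive without mutant replicate 2, mutant replicate 3, wt replicate 1 or wt replicate 3. The other 5 ratios kept their sign. The DESeq2 fits with a library left out were added after seeing the data, with log2 fold changes of 0.41 to 0.55 for Tgif1 and -1.09 to -0.79 for Smurf1. The calls held without mutant replicate 2 for both (0.54 and -0.96), without wt replicate 2 for Tgif1 (0.55) and without wt replicate 3 for Smurf1 (-1.09). The cause of these changes was not tested. No paired analysis was possible because replicate numbers follow accession order and the labels give no shared number. Depth limits Pmepa1 most, at 74 to 200 counts a library.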
